A study of Mus musculus with 4 samples.

Results

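The 49 genes described here encode collagens, other proteins of the extracellular matrix, and the proteases and inhibitors that act on it. They were chosen by name and function, by a rule that uses no measured value, from the 37074 gene names on a mouse whole-genome array. The choice was made with earlier results of these data known. All 49 were on the array, with 98 probes. RNA came from GC-1 cells, a mouse line of spermatogonial type, on 4 one-colour Agilent 8x60k arrays, 2 per group. One group received a plasmid carrying murine Hdac6 with a myc/DDK tag under the CMV promoter, the other the empty vector. Both were cultured in high-glucose DMEM with serum, with fresh medium at 24 h and harvest at 48 h after transfection. Hdac6 is a cytoplasmic lysine deacetylase, and the series is about germ cell migration. Nothing in the labels says that the 2 arrays of a group hold RNA of different cultures. The spread behind every p-value is thus that between these samples and may be technical.

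Cells are held in tissues by a network of secreted proteins. Collagens form its fibres and sheets, laminins, nidogen and perlecan build the basement membrane, and matricellular proteins modulate how cells attach. Metalloproteases and the plasminogen activators cut this network, TIMPs block the metalloproteases, and lysyl oxidases crosslink collagen. In the testis a basement membrane surrounds the seminiferous tubule and lies under the spermatogonia.

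Levels below are log2 processed signal minus the array's 75th percentile, so 0 is the 75th percentile of all probes on that array. Each gene is represented by its brightest probe among those tested, which means that the scanner flagged it well above background on each array of 1 group or of both. Levels of different probes depend on the probe and are not compared. Differences are Hdac6 vector minus empty vector, fitted with limma and adjusted by Benjamini-Hochberg over 35205 probes.

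Of the 49 genes, 45 were tested, and 44 were well above background on all 4 arrays. Lama1, Lum, Mmp9 and Mmp15 were well above background on none. None of the 45 passed an adjusted p of 0.05 in limma, and by its brightest probe 0 of 45 had an unadjusted p under 0.05. Among the 29 dimmer tested probes of these genes 4 did, described further down. Over the whole array 4 of 35205 probes passed (0.0114%), and 1.84% of 23492 gene names had an unadjusted p under 0.05. The smallest adjusted p among the 45 genes was 1.00. Among them 21 were higher and 24 lower with the Hdac6 vector, with a median difference of -0.06 against 0.00 over all tested gene names, of which 50.7% were higher. Among the 44 well above background on all 4 arrays the differences ran from -0.37 for Plau to 0.59 for Col6a2. In 3 genes both Hdac6 vector arrays lay above both empty vector arrays, against a background of 12.3%, and in 6 both lay below, against 12.9%. One of the 6 is Postn, undetected with the Hdac6 vector by the scanner's flag. Among the 44 genes without it 21 were higher and 23 lower, with a median of -0.05, and in 5 both Hdac6 vector arrays lay below.

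**Figure D1:**
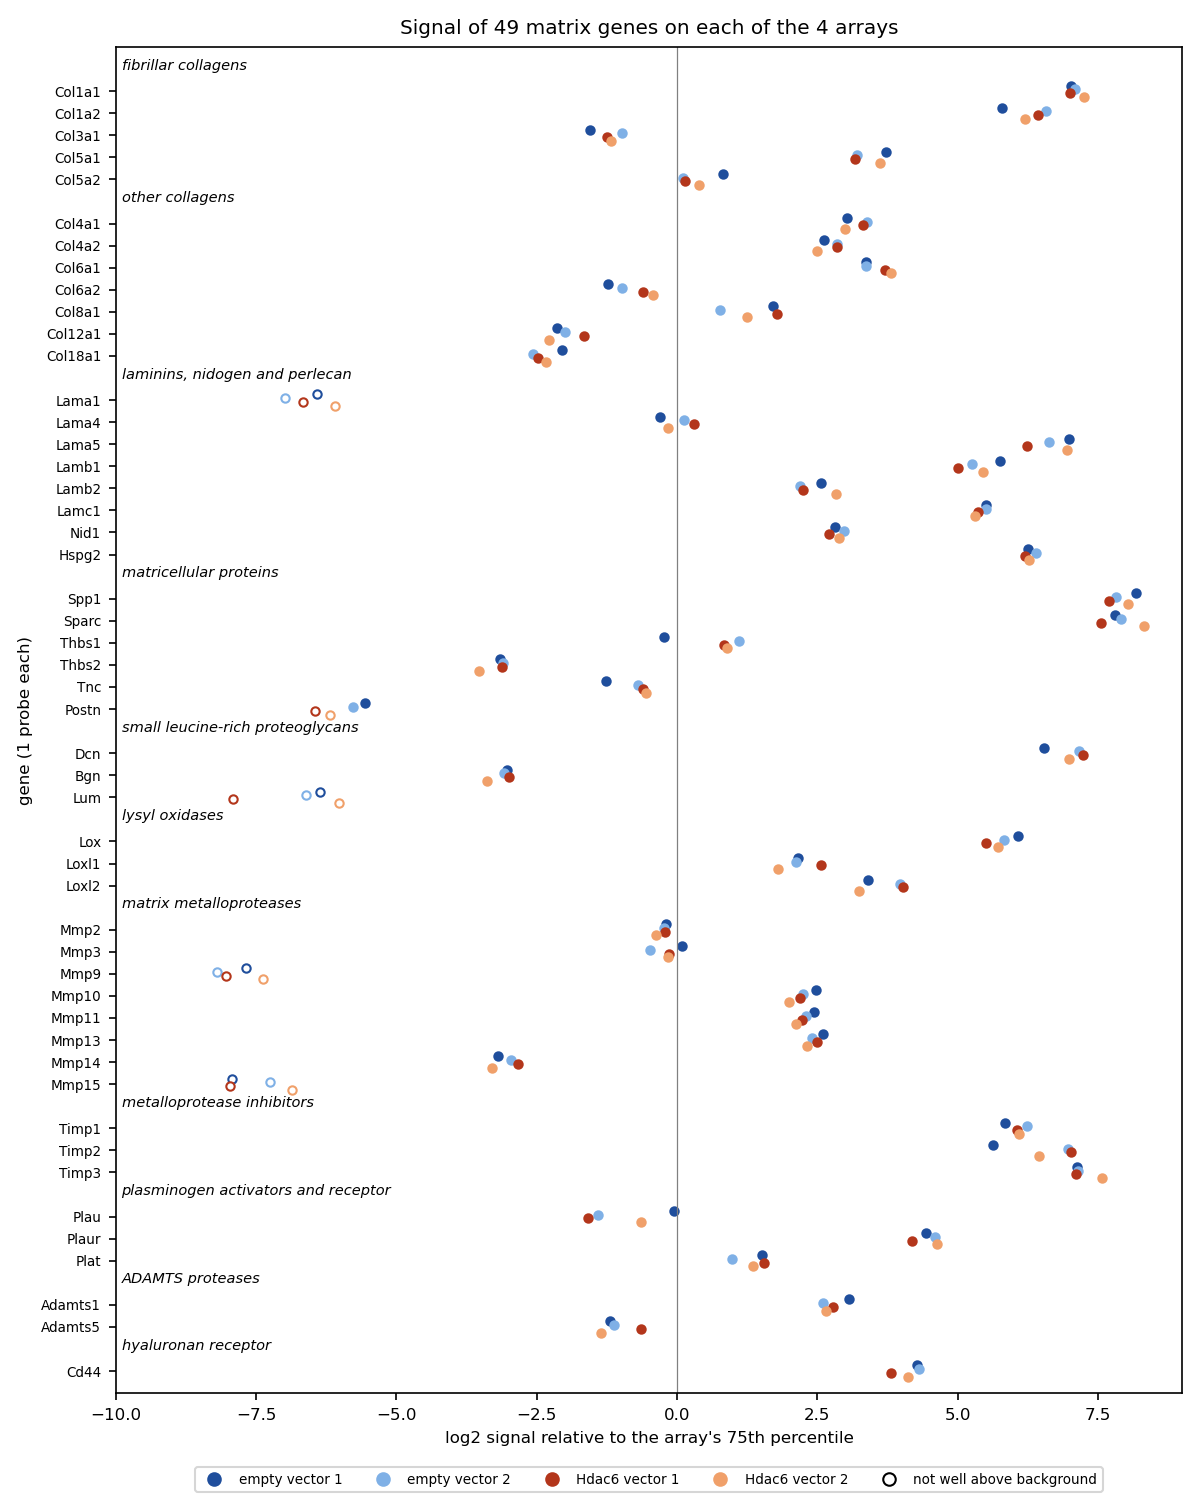
Horizontal axis, log2 signal minus the 75th percentile of its array, for each of the 49 genes, ordered by role. Each point is 1 array, and open points were not well above background; Lama1, Lum, Mmp9 and Mmp15 are open throughout, and Postn on the Hdac6 vector arrays.

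Facts of the whole set of arrays bear on every value. Between 61.04% and 66.4% of spots were well above background. The closest pair of arrays crossed the groups: empty vector 2 and Hdac6 vector 1 differed by a median of 0.19 over tested probes, and only 3 of the 45 genes differed by more than 0.5 between them, whereas 15 of 45 did between the 2 empty vector arrays. The single Hdac6 probe, near the 3′ end of the transcript (chrX:7507249-7507308, mm9), gave overlapping groups, 3.31 and 2.83 for the empty vector against 2.62 and 3.24 for the Hdac6 vector. Whether it can read the transcript of the plasmid is not known here, so it does not check the labels. Of 12 spermatogonial markers 7 were well above background on all 4 arrays, and Dazl and Kit were on none. The same count was 7 of 8 for fibroblast markers (Thy1 on none), 5 of 5 for peritubular myoid, 5 of 8 for Sertoli (Amh and Cldn11 on none), 5 of 6 for macrophage (Adgre1 on none), 2 of 5 for endothelial and 2 of 6 for Leydig markers. The summed linear level of the fibroblast list was 274 and 350 for the empty vector against 325 and 435 for the Hdac6 vector, and that of the spermatogonial list 23.7 and 11.1 against 13.1 and 16.2. S100a4 and Vim made up most of the fibroblast sum. Uchl1 made up most of the spermatogonial sum, with log2 levels of 4.53 and 3.39 for the empty vector against 3.65 and 3.96 for the Hdac6 vector. Summed levels did not overlap between the groups for the myoid list (10.9 and 10.3 against 13.6 and 14.9), the macrophage list (33.9 and 22.0 against 19.6 and 18.9) and the endothelial list (0.332 and 0.313 against 0.308 and 0.242). Single genes carried these sums: in the myoid list Acta2 differed by 0.56 but Cnn1 by -0.58 and Des by -0.33, in the macrophage list Cd68 differed by -0.92 and its other 4 detected genes by -0.06 to 0.13, and 3 of the 5 endothelial probes were not well above background on any array. The summed levels of the other marker lists overlapped between the groups. No share over comparable lists is given. Among single gene names, 12.3% lay higher and 12.9% lower with the Hdac6 vector without overlap. The part of these markers in the results was not tested.

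Probes of 3 genes are shown by the first 30 of their 60 bases, as the array's design gives them, 5′ to 3′. Col6a1 has 1 probe and Col6a2 has 3, and all 4 read higher with the Hdac6 vector; the 3 probes of Timp3 differed from each other. These were chosen after their values were seen.
Col6a1 (chr10:76171538-76171597, mm9, minus strand): ccacattccccgtaatctgatccaagccag
Col6a2 brightest (chr10:76064567-76064626, minus): gttccccttttggttgatatcagggaagaa
Col6a2 probe 2 (chr10:76058931-76058990, minus): ttctttgacaggttcatccgctggatctgt
Col6a2 probe 3 (chr10:76061089-76061148, minus): aagttcatgtacctggcatgttctgattga
Timp3 brightest (chr10:85812041-85812100, plus): cagtagagatgaagagacaccagccagaga
Timp3 probe 2 (chr10:85811696-85811755, plus): atagtgacttttggggatagatctgtctgg
Timp3 probe 3 (chr10:85769407-85769466, plus): aagactctggggtcttgacattaggaaacc

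RefSeq promoter windows of 300 bases (GRCm38.p6) matched 32 of the 49 genes, in 37 windows. The AP-1 motif TGANTCA, searched on both strands, was in 13.5% of these windows and in 7.81% of all 32851, and the TATA box TATAAA in 27.0% and 13.6%. AP-1 is a Fos/Jun transcription factor known for driving several metalloprotease genes. Mmp3, Mmp10 and Mmp13, neighbours on chromosome 9, held both motifs, and Col6a1 held the first. The 120 bases before the start site are shown for these 4 and for Col6a2, with motif matches in capitals. Col6a2 has 2 windows; the 1 shown and the other, not shown, hold neither motif.
Mmp3 (chr9:7445702-7445821, plus): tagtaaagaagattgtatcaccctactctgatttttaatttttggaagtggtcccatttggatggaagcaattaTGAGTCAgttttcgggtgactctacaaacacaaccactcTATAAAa
Mmp10 (chr9:7502222-7502341, plus): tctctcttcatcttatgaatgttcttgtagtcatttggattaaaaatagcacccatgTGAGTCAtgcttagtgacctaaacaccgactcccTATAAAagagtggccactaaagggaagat
Mmp13 (chr9:7272394-7272513, plus): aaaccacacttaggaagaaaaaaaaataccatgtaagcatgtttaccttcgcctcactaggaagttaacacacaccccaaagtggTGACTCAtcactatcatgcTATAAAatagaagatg
Col6a1 (chr10:76726045-76726164, minus): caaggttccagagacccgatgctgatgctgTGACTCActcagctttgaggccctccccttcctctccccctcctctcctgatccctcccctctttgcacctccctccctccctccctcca
Col6a2 (chr10:76623405-76623524, minus): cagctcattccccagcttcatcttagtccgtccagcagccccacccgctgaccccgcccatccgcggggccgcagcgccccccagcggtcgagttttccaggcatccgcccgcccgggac
A match describes these letters at any place in the window and is no evidence of binding or of a working TATA box. The other genes with an AP-1 or TATA match were Plaur, Col3a1, Spp1, Thbs2, Tnc, Postn and Adamts1.

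Fibrillar collagens form the tensile fibres of connective tissue. All 5 genes were well above background on all 4 arrays, 3 higher and 2 lower with the Hdac6 vector, and the groups overlapped in each. The differences ran from -0.20 to 0.13. Col5a2, which encodes a chain of the collagen V that sets fibre diameter, read 0.82 and 0.11 on the empty vector arrays and 0.14 and 0.39 on the Hdac6 vector arrays. Empty vector 1 was the high array and the other 3 lay together. The difference was -0.20 on the log2 scale (95% interval -0.88 to 0.48), with limma adjusted p = 1.00. Without empty vector 1 it was 0.16. Col1a1 and Col1a2, the chains of collagen I, differed by 0.08 and 0.13, Col3a1 by 0.06 and Col5a1 by -0.07.

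Collagen VI forms beaded microfibrils around cells, from chains encoded by Col6a1, Col6a2 and others. Col6a2 read -1.24 and -0.98 on the empty vector arrays and -0.61 and -0.43 on the Hdac6 vector arrays. Both Hdac6 vector arrays lay above both empty vector arrays. The difference was 0.59 on the log2 scale (95% interval -0.02 to 1.20), 1.51-fold, the largest positive difference among the 45 genes, with limma unadjusted p = 0.058 and adjusted p = 1.00. Probe 2 read -2.37 and -2.21 on the empty vector arrays and -1.25 and -1.39 on the Hdac6 vector arrays. That difference was 0.98 on the log2 scale (95% interval 0.33 to 1.62). Probe 3 read -2.90 and -2.24 on the empty vector arrays and -1.86 and -2.20 on the Hdac6 vector arrays, a difference of 0.54 on the log2 scale (95% interval -0.23 to 1.31). The groups were separate at all 3 probes, which share their samples and are not replicates. The 3 probes are assigned to different transcript records. Col6a1 read 3.37 and 3.37 on the empty vector arrays and 3.70 and 3.81 on the Hdac6 vector arrays. The 2 empty vector arrays were nearly equal and below both Hdac6 vector arrays, with a difference of 0.39 on the log2 scale (95% interval -0.12 to 0.89), 1.31-fold, and adjusted p = 1.00 in limma. Col6a3, which encodes another chain and is named after its values were seen, went the other way at -0.55 on the log2 scale (95% interval -1.34 to 0.25), near the lower end of detection and above background on 3 arrays. The 2 basement membrane chains Col4a1 and Col4a2 differed by -0.05 and -0.06, and the groups overlapped. Col8a1 differed by 0.27, Col12a1 by 0.10 and Col18a1 by -0.10, all with overlapping groups.

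Laminins are the cross-shaped trimers of the basement membrane, which nidogen and perlecan link to collagen IV. Of 8 genes 7 were tested, 2 higher and 5 lower, with a median of -0.10. Lamb1, the beta-1 chain, read 5.76 and 5.26 on the empty vector arrays and 5.01 and 5.45 on the Hdac6 vector arrays. The ranges overlapped, with a difference of -0.28 on the log2 scale (95% interval -0.90 to 0.35) and limma adjusted p = 1.00. It was -0.027 without empty vector 1 and -0.062 without Hdac6 vector 1. Lamc1, the gamma-1 chain shared by most laminins, read 5.51 and 5.51 on the empty vector arrays and 5.37 and 5.32 on the Hdac6 vector arrays. Both Hdac6 vector arrays were lower by a small step, -0.17 on the log2 scale (95% interval -0.69 to 0.36), and a second probe 2 bases away along the genome gave -0.13. Its other tested probes read apart: 1 of them had -1.52 and 0.37 on the empty vector arrays and 0.34 and -1.39 on the Hdac6 vector arrays, a pattern that splits both groups. Lama4 differed by 0.16, Lama5 by -0.22, Lamb2 by 0.16, Nid1 (nidogen) by -0.09 and Hspg2 (perlecan) by -0.10, all with overlapping groups.

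Matricellular proteins bind matrix and receptors without building fibres. Spp1 (osteopontin) and Sparc lay between 7.56 and 8.32 on the 4 arrays and differed by -0.13 and 0.07. Thbs1 and Thbs2 (thrombospondins) differed by 0.43 and -0.19, with overlapping groups. Thbs1 was lowest on empty vector 1, and without that array it differed by -0.24. Tnc, tenascin C, read -1.26 and -0.70 on the empty vector arrays and -0.61 and -0.54 on the Hdac6 vector arrays. Empty vector 1 stood apart below and the other 3 were close, and the groups did not overlap. The difference was 0.41 on the log2 scale (95% interval -0.25 to 1.06), and 0.13 without that array. A second Tnc probe, upstream in the same transcript, read -6.79 and -5.17 on the empty vector arrays and -4.97 and -4.20 on the Hdac6 vector arrays, again lowest on empty vector 1, where it was not well above background. Postn, periostin, read -5.56 and -5.77 on the empty vector arrays and -6.46 and -6.18 on the Hdac6 vector arrays. It was well above background on both empty vector arrays and on neither Hdac6 vector array, and the lowest level that counted as well above background was -5.82 and -5.33 on the Hdac6 vector arrays. No fold or test is given, since Postn entered the tested set only through the empty vector arrays and the bound that these levels allow is under 1.

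Small leucine-rich proteoglycans bind collagen fibres. Dcn (decorin) read 6.54 and 7.17 on the empty vector arrays and 7.23 and 6.98 on the Hdac6 vector arrays, and Bgn (biglycan) differed by -0.14. The Dcn groups overlapped, with a difference of 0.25 on the log2 scale (95% interval -0.40 to 0.91). Lysyl oxidases crosslink collagen and elastin. Lox read 6.08 and 5.82 on the empty vector arrays and 5.50 and 5.72 on the Hdac6 vector arrays. Both Hdac6 vector arrays lay below both empty vector arrays, with a difference of -0.34 on the log2 scale (95% interval -0.90 to 0.21), 0.788-fold, adjusted p = 1.00 in limma. Without empty vector 1 it was -0.21. The second Lox probe differed by -0.33, again without overlap. Loxl1 and Loxl2 differed by 0.05 and -0.06.

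**Figure D2:**
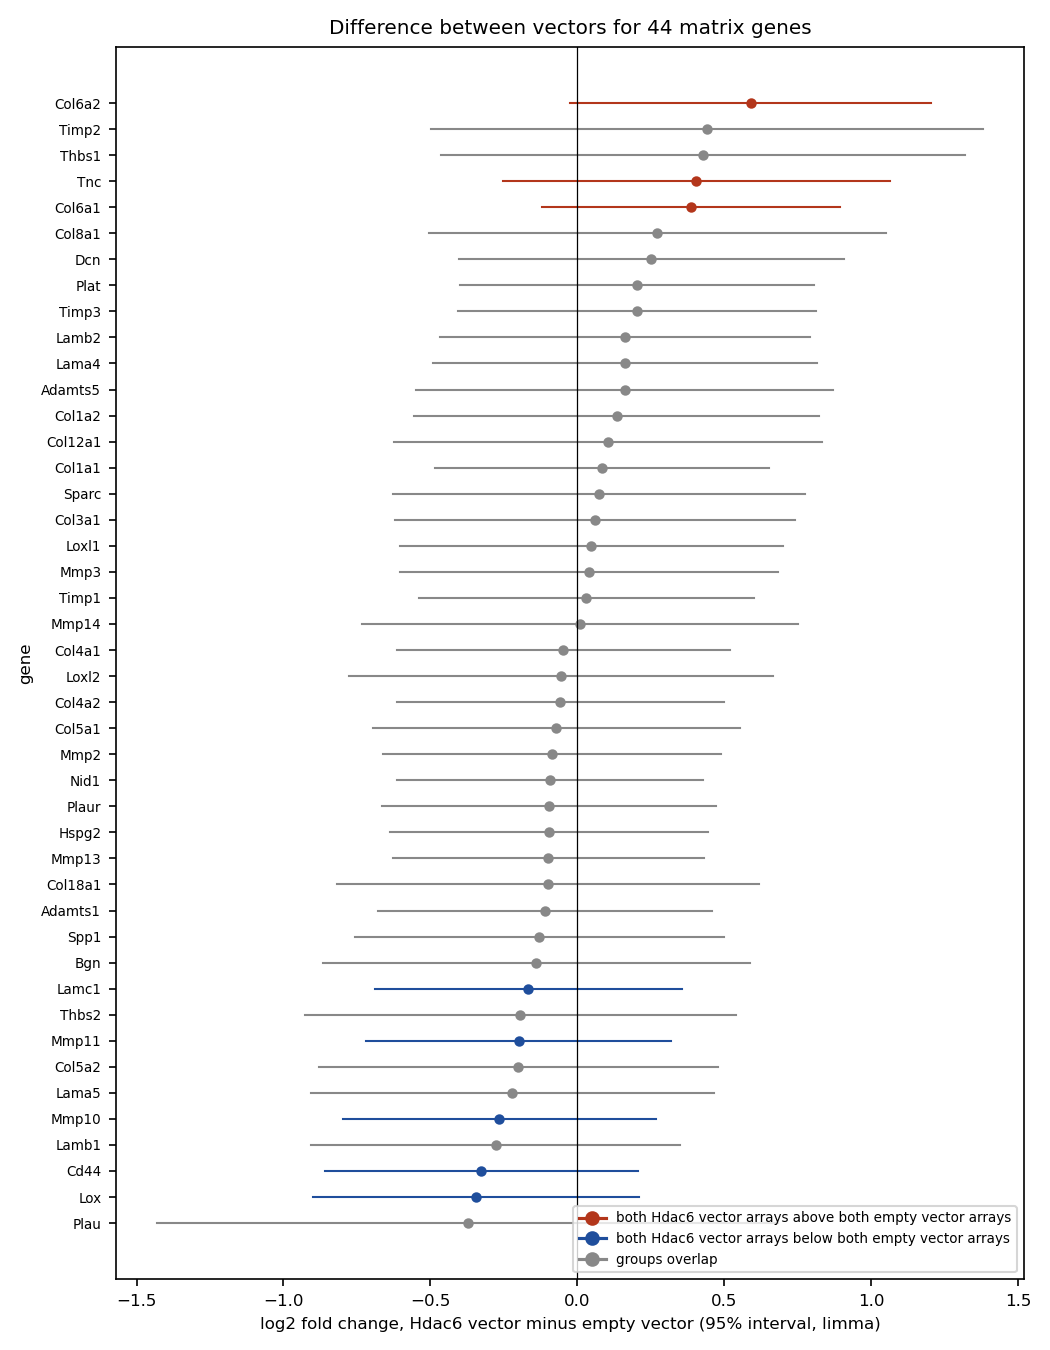
Log2 difference, Hdac6 vector minus empty vector, with its 95% limma interval, for the 44 genes well above background on all 4 arrays, sorted by size. Every interval crosses 0; Col6a2 is highest and Plau lowest, and Postn is left out.

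Matrix metalloproteases cleave collagens and other matrix proteins. Of 8 genes 6 were tested, 2 higher and 4 lower, with a median of -0.09. Mmp10 (stromelysin 2) read 2.47 and 2.24 on the empty vector arrays and 2.19 and 2.00 on the Hdac6 vector arrays. The Hdac6 vector arrays were both lower, with a difference of -0.26 on the log2 scale (95% interval -0.80 to 0.27), with adjusted p = 1.00 in limma. Mmp11 (stromelysin 3) read 2.45 and 2.30 on the empty vector arrays and 2.23 and 2.12 on the Hdac6 vector arrays, a difference of -0.20 on the log2 scale (95% interval -0.72 to 0.32). Without empty vector 1 Mmp10 was -0.15 and Mmp11 -0.12. The other 2 genes of the chromosome 9 cluster whose promoters are shown above, Mmp3 and Mmp13, differed by 0.04 and -0.10 with overlapping groups. Mmp2 (gelatinase A) differed by -0.09 and the membrane-bound Mmp14, known to activate it, by 0.01.

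TIMPs inhibit the metalloproteases. All 3 genes had a positive difference, with a median of 0.20, and in none were the groups separate. Timp2 read 5.63 and 6.96 on the empty vector arrays and 7.03 and 6.45 on the Hdac6 vector arrays. Empty vector 1 was the low array, the difference was 0.44 on the log2 scale (95% interval -0.50 to 1.38), and it was -0.22 without that array. Timp3 read 7.13 and 7.16 on the empty vector arrays and 7.10 and 7.58 on the Hdac6 vector arrays, a difference of 0.20 on the log2 scale (95% interval -0.41 to 0.81) that became -0.036 without Hdac6 vector 2. Timp1 differed by 0.03, and this sign turned with median scaling (-0.061) and normexp (-0.024). Timp3 probe 3, shown above and assigned to another transcript, read -4.96 and -2.68 on the empty vector arrays and -2.11 and -2.25 on the Hdac6 vector arrays, far below the rest on empty vector 1.

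Plasminogen activators start the plasmin cascade, which opens the matrix. Plau (urokinase) read -0.06 and -1.41 on the empty vector arrays and -1.58 and -0.64 on the Hdac6 vector arrays. It was high on 1 array of each group, with a difference of -0.37 on the log2 scale (95% interval -1.43 to 0.68) that was 0.30 without empty vector 1 and 0.10 without Hdac6 vector 1. Its receptor Plaur differed by -0.10 and Plat (tissue-type activator) by 0.20. Adamts1 and Adamts5, proteases that cut aggrecan and related proteoglycans, differed by -0.11 and 0.16; Adamts5 read -1.20 and -1.12 on the empty vector arrays and -0.64 and -1.35 on the Hdac6 vector arrays, overlapping, with an interval of -0.55 to 0.87. Without Hdac6 vector 1 it was -0.19. Cd44, the hyaluronan receptor, read 4.27 and 4.31 on the empty vector arrays and 3.81 and 4.12 on the Hdac6 vector arrays. Both Hdac6 vector arrays were lower, with a difference of -0.33 on the log2 scale (95% interval -0.86 to 0.21), 0.797-fold, limma adjusted p = 1.00. The second Cd44 probe gave -0.20, and the third, dimmer and with overlapping groups, gave -0.03. Without Hdac6 vector 1 the brightest Cd44 probe gave -0.18.

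Of 158 other matrix genes, listed by function, 127 were tested. None passed, with 64 higher and 63 lower and a median of 0.01. At an unadjusted limma p under 0.05 there were 5 of 127, all lower, against 1.84% over all gene names. Mgp (matrix Gla protein) read 2.20 and 1.63 on the empty vector arrays and 1.20 and 0.97 on the Hdac6 vector arrays, a difference of -0.83, or -0.54 without empty vector 1. Has2, the hyaluronan synthase that makes the ligand of Cd44, differed by -0.76, Serpinf2 (antiplasmin) by -1.15 and Ltbp1, which stores latent TGF-beta in the matrix, by -0.90. Without empty vector 1 Serpinf2 was -0.60 and Ltbp1 -0.52. Serpinf2 was -0.61 with normexp, and Ltbp1 was -0.37 as the mean over its probes and -0.45 in the authors' deposited table. In each of these 4 genes the groups did not overlap, which their choice by smallest unadjusted limma p favours. Over the 127 genes the groups were separate upward in 14 and downward in 18, near the 12.3% and 12.9% of all gene names.

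Different probes of 1 gene did not always move together. Besides the brightest probe, 29 other probes of 18 genes were tested, and 7 differed in sign from it. Of the 29, 4 had an unadjusted limma p under 0.05, against 1.83% of all tested probes, and all 4 were higher with the Hdac6 vector: a probe each of Col6a2 (0.98), Col5a2 (1.00), Tnc (1.39) and Timp3 (1.64), the last 3 lowest on empty vector 1. Their adjusted p in limma was 1.00. The Col5a2 and Tnc probes were not well above background on empty vector 1 and entered the tested set through the Hdac6 vector arrays, so their differences are not measured on both sides. Of the 29, 17 were lowest on empty vector 1, against 10 of the 45 brightest probes; over all gene names the shares were 29.3% of other probes and 27.7% of brightest probes. In 2474 transcripts with tested probes at least 1000 bases apart, the upstream minus downstream signal, relative to its mean over arrays, had medians of -0.09 and -0.06 on the empty vector arrays but 0.10 and 0.05 on the Hdac6 vector arrays. The part of probe position in the differences above was not tested.

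**Figure D3:**
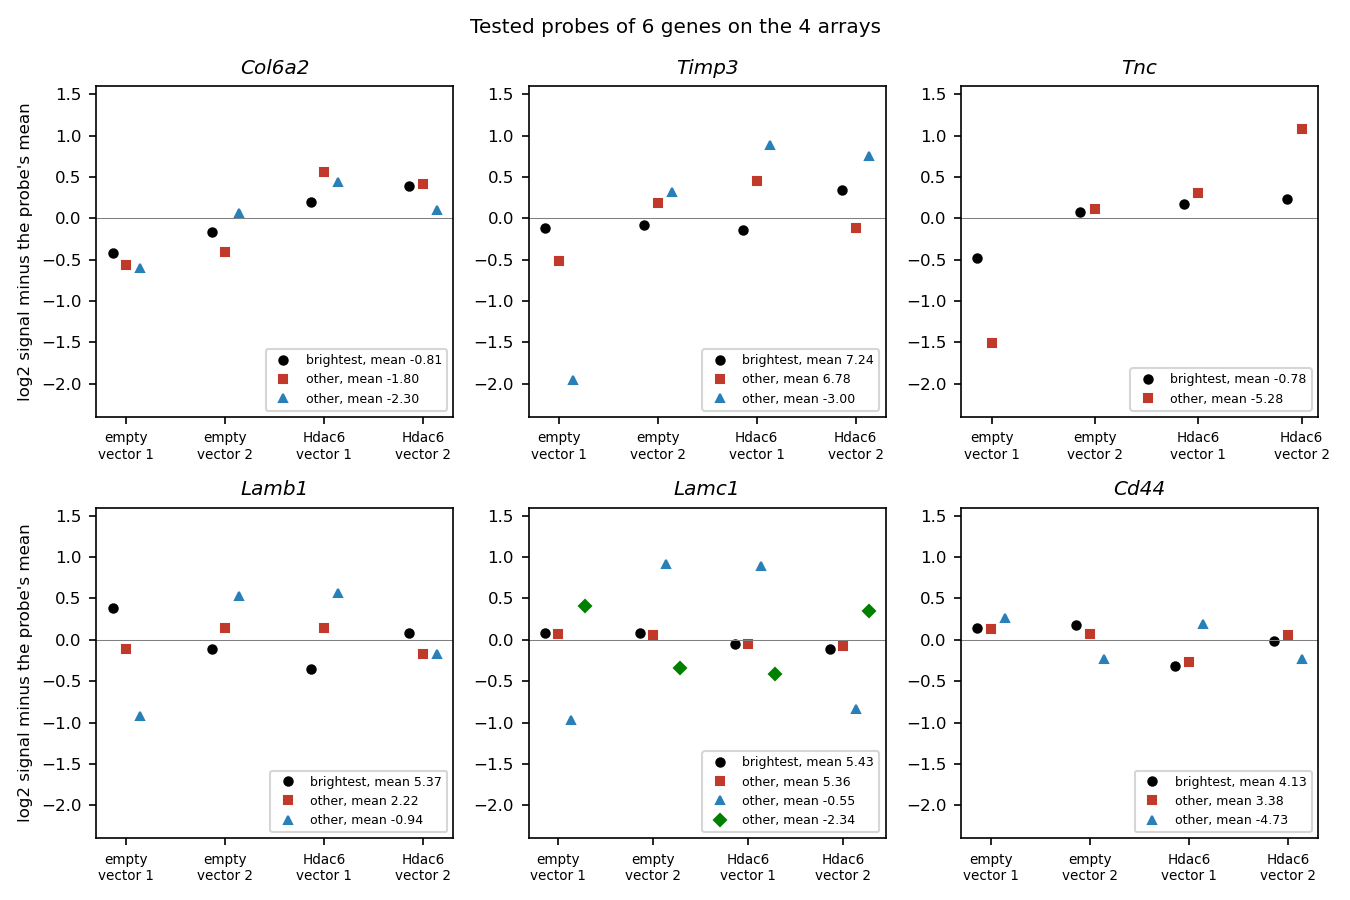
Log2 signal minus the probe's mean over the 4 arrays, for every tested probe of 6 genes; each symbol is 1 probe on 1 array. The Col6a2 probes are all higher on the Hdac6 vector arrays, and Timp3 probe 3 and the dimmer Tnc probe are far lowest on empty vector 1.

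The authors' deposited table gives 1 log2 value per gene name. Set on the scale used here, 46 of 50 values of the 13 genes with some but not all probes above background equalled the mean of the probes above background on that array, within 0.01, and 10 of the same 50 equalled the mean of all probes. The number of probes averaged then varied between arrays for 10 genes, and 8 of these differed by more than 0.5 from the brightest probe's difference, against 1 of the other 39. For Lama4 the table reads -2.80 and -2.53 for the empty vector and -1.04 and -1.26 for the Hdac6 vector, a difference of 1.51 where the brightest probe gave 0.16, with 3 probes above background on each empty vector array and 2 on each Hdac6 vector array. For Col5a2 it reads 0.83 and -2.54 for the empty vector and -2.42 and -2.02 for the Hdac6 vector, with 1 probe above background on empty vector 1 and 2 on each other array.

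**Figure D4:**
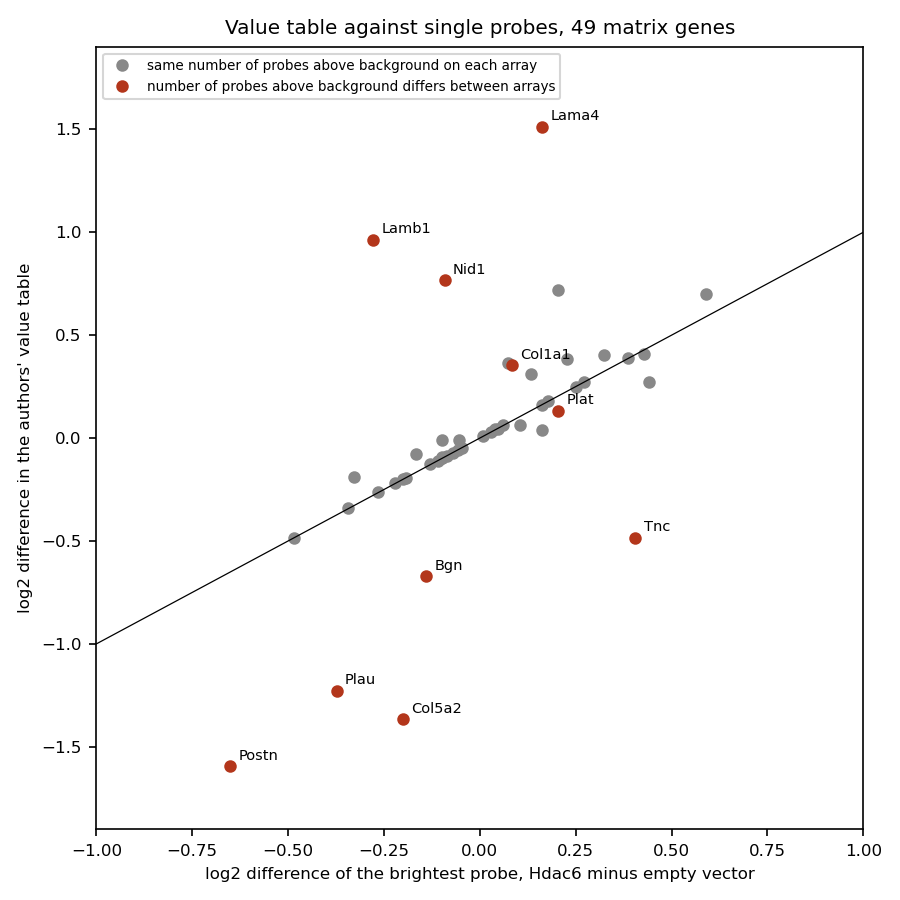
Log2 difference between vectors in the authors' deposited table (vertical) against that of the brightest probe (horizontal) for the 49 genes, with the line of equality. The 10 genes whose number of probes above background varied between arrays are named, and 8 of them lie more than 0.5 from the line.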

How the data were processed

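Gene expression was measured on 4 one-colour arrays, 2 with the empty vector and 2 with the Hdac6 vector. The deposited scanner files contain intensity values, per the file headers from Agilent Feature Extraction 11.5.1.1, protocol GE1_1105_Oct12, build mm9, background-subtracted but not normalized between arrays. The authors also deposited a table of log2 values, 1 per gene name, used as an alternative; its making is not stated in any source used. Spots with an outlier flag were left out, which removed 15 probes, and the 10 spots of each of 300 repeated probes were averaged on the log2 scale. Each array's 75th percentile over averaged probes was subtracted. The first run took that percentile over spots and kept flagged single spots; both were replaced after its results had been seen, and both are given as alternatives. The test was limma's (version 3.58.1, R 4.3.3), two-sided, from lmFit and eBayes with a trend. The fit has 2 residual degrees of freedom, and the shared spread added 7.07. The number of arrays limits the precision. No spot was saturated. The members and lists were chosen with earlier results of these data known. Named in full were, per role group, genes past either p threshold and the gene with the largest difference, and of the other matrix genes the 5 with the smallest p, of which 1 is not reported here; Col6a1, Lamc1, Tnc, Mmp11, Timp1 and Timp3 were added after their values were seen, as were the dimmer probes described and the genes in the plot of probes. The main fit did not pair the arrays by replicate number. Deviations of same-numbered arrays correlated at -0.36, which does not show how the samples were prepared.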

Additional observations from a re-analysis of the deposited data

Results flagged for a closer look

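In the authors' deposited table, 5 of the 49 genes had both Hdac6 vector values above both empty vector values. By the brightest probe, 12.3% of all tested gene names lay higher in this way. The share over all rows of the deposited table is not given here, so the 5 are no excess. The differences were 0.39 for Col6a1, 0.70 for Col6a2, 0.40 for Lama1, 1.51 for Lama4 and 0.72 for Timp3, on the log2 scale. The screen listed higher values only. In the same table both Hdac6 vector values lay below both empty vector values for Lox, Mmp10, Mmp11, Cd44, Postn, Plau and Bgn. By the brightest probe, 12.9% of all tested gene names lay lower with the Hdac6 vector without overlap. No probe of Lama1 was well above background on any array. The Lama4 row averaged 3 probes on each empty vector array and 2 on each Hdac6 vector array. An earlier form of this screen, which asked for a gap of over 0.5 between the groups and was set after the table's values had been seen, kept only Lama4. Groups of 2 arrays are too small for a screen for outlying arrays.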

How the results depend on the processing

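None of the 45 genes passed an adjusted p of 0.05 in limma under any of the 16 alternatives, and 9 kept their sign in all of them: Col6a1, Col6a2, Lamc1, Hspg2, Lox, Mmp2, Mmp10, Mmp11 and Cd44. Some of the 16 could not turn a sign: the fit without the trend and those with a block of arrays leave each gene's difference unchanged. Across the scalings and normexp 32 of 45 kept their sign. The count of changed probes over the whole array, 4, was 29 with normexp, 2 with quantile normalization, 0 with median scaling, 2 without the trend, 19 in the authors' deposited table and 2 with the mean over a gene's probes. Leaving out 1 array gave 0 to 302 (12 without empty vector 1, 302 without empty vector 2), and with 1 array in a group that array is assumed to vary like the others. Ltbp1 alone of the other matrix genes passed, without empty vector 2 (-1.28, limma adjusted p = 0.046), which made the count 1 in place of 0.

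With the replicate number as a block, 22 probes passed, and with the crossed pairing, added after seeing the data, 15; neither block called any of the 45 genes. The 75th percentile over all spots and flagged single spots kept, the settings of the first run, each gave 4.

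Over the 45 genes, signs reversed in 7 with normexp, 7 with median scaling, 3 with quantile normalization, 2 with the mean over a gene's probes, 10 in the authors' deposited table and 7 to 15 with 1 array left out (15 without empty vector 1); 32 had both signs among the fits without 1 array. Among the genes given in full the reversals were these, and the cause was not tested. With the mean over a gene's probes Col5a2 was 0.40 and Lamb1 0.026. In the authors' deposited table Lamb1 was 0.88, Adamts5 -0.042, Tnc -0.56 and Timp1 -0.051, with the table's own scaling; set on the scale used here, Lamb1 was 0.96, Adamts5 0.039, Tnc -0.48 and Timp1 0.030, so that Adamts5 and Timp1 kept their sign. With normexp Postn was 0.0051 and Timp1 -0.024, and with median scaling Timp1 was -0.061. Leaving out 1 array, their ranges that crossed 0 were -0.56 to 0.16 for Col5a2, -0.062 to 0.57 for Dcn, -0.22 to 1.11 for Timp2, -1.05 to 0.30 for Plau, -0.19 to 0.51 for Adamts5, -0.17 to 0.23 for Timp1 and -0.036 to 0.44 for Timp3. The low or high end came without empty vector 1 for Col5a2, Dcn, Timp2, Plau and Timp1, without Hdac6 vector 1 for Adamts5 and without Hdac6 vector 2 for Timp3; Plau was also positive without Hdac6 vector 1 (0.10).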
